A study of Mus musculus with 4 samples.

Results

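The genes described here are 10 heat shock protein and co-chaperone genes of mouse liver: Hspa1a, Hspa1b, Hspa8 and Hsph1 of the HSP70 group, the HSP70 partners Dnajb1 and Bag3, the HSP90 gene Hsp90aa1, the small heat shock protein gene Hspb1, and the mitochondrial chaperonin genes Hspd1 and Hspe1. They were chosen by symbol from 30702 named genes on the array, and each was read from its brightest probe set over the 4 arrays. Hspa1a and Hspa1b have the same brightest probe set, so the 10 genes came to 9 probe sets, all with a mean above the filter for dim features. The study measured liver RNA around an overdose of acetaminophen, a drug that hepatocytes convert to a reactive metabolite, and is titled for the role of YAP, a coactivator of the Hippo pathway, in regeneration. Each pairing of a genotype (wildtype or YAP-KO) with a time (0 or 24 h) had 1 of the 4 arrays. All mice were male and fasted, and RNA of 3 livers was pooled on each array. The wildtype mice carried the floxed Yap1 allele without a knockout. The 0 h mice were killed after fasting, and the 24 h mice were killed 24 h after 300 mg/kg acetaminophen into the peritoneum. Strain, age, the Cre driver and the cells that lost Yap1 are not named in the sources used here, and no 24 h array without acetaminophen was among the 4, so drug, time and handling cannot be told apart. Pools of 1 array per group leave no replicate error: every difference below is between single arrays unless a fit is named.

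Heat shock proteins are chaperones that bind unfolded protein, stop it from clumping and help it refold. HSP70 proteins work in cycles of ATP use that J-domain proteins such as DNAJB1 start and that nucleotide exchange factors such as HSPH1 and BAG3 end; HSP90 finishes the folding of kinases and steroid receptors, and HSP60 with HSP10 folds proteins inside mitochondria. Many of these genes are switched on by heat shock factors when protein damage rises, and the acetaminophen metabolite is known to bind liver proteins.

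Yap1 read 7.54 in wildtype and 6.31 in the YAP-KO array at 0 h, and 8.24 and 6.01 at 24 h, lower in YAP-KO at both times. Array values were taken to be on a log2 scale, from their range, so that 1 unit is 2-fold. The highest value of each array lay between 19.83 and 19.93 and was held by 141 to 167 probe sets within 0.01; such values were taken as saturated. The hepatocyte genes Alb and Ttr were saturated on every array. Among lymphocyte markers, Cd3e, Cd4, Cd8a and Ms4a1 were below the filter of 4.322. In whole liver, a change in the make-up of the cells and a change of RNA per cell cannot be told apart. Neutrophil markers were summed over 9 genes as linear values, and the sum is given as log2. They stood at 8.44 (wildtype) and 8.56 (YAP-KO) before the overdose and at 11.34 and 9.51 after it. Such a sum is weighted towards the brightest genes. Of the 8 measured, 5 were 2-fold lower in YAP-KO than wildtype at 24 h (5.73% of all features were), with a median of -1.34. Ly6g (0.53) and Camp (0.18) were higher. These 2 were also lower at 24 h than at 0 h in wildtype (-0.63 and -0.65). The 11 monocyte and macrophage markers, summed alike, stood at 11.84 and 11.68, then 14.08 and 13.87. Of these 11, Cd14 (-3.73), Marco (-1.67) and Csf1r (-1.27) were 2-fold lower in YAP-KO than wildtype at 24 h (5.73% of all features were). The list median was -0.50, Lyz2, the brightest, was -0.01, and only Ccr2 was above 0 (0.46). The summed level of the 7 hepatocyte markers, 21.80 to 21.89, is set by saturated genes (Alb, Apoa1, Ttr and, on 3 arrays, Tat). The readable ones differed over time: Cebpa by -2.43 in wildtype and -1.28 in YAP-KO, Hnf4a by -0.90 and -1.45, and Asgr1 by -0.62 and 0.58. Of 5 sinusoidal endothelial markers, Lyve1 was 5.51 higher at 24 h in wildtype and 0.89 in YAP-KO, with list medians of 0.15 and 0.60. Of 7 stellate and myofibroblast markers, 3 were 2-fold higher over time in each genotype (12.7% and 4.73% of all features were). Lrat was lower in both (-1.32 and -0.30). The part of all these cells in the values below was not tested.

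Among the 8 readable probe sets, the inducible HSP70 genes were higher at 24 h in both genotypes and highest in YAP-KO at 24 h. Hspb1 and Hsph1 were above wildtype in the YAP-KO arrays of both times, with smaller differences between the times. Hsp90aa1 and Bag3 were higher in YAP-KO before the overdose and in wildtype after it. Dnajb1, Hspd1 and Hspe1 differed by less than 1.5-fold between the times in each genotype and between the genotypes at each time, and Hspa8 could not be read.

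**Figure D1:**
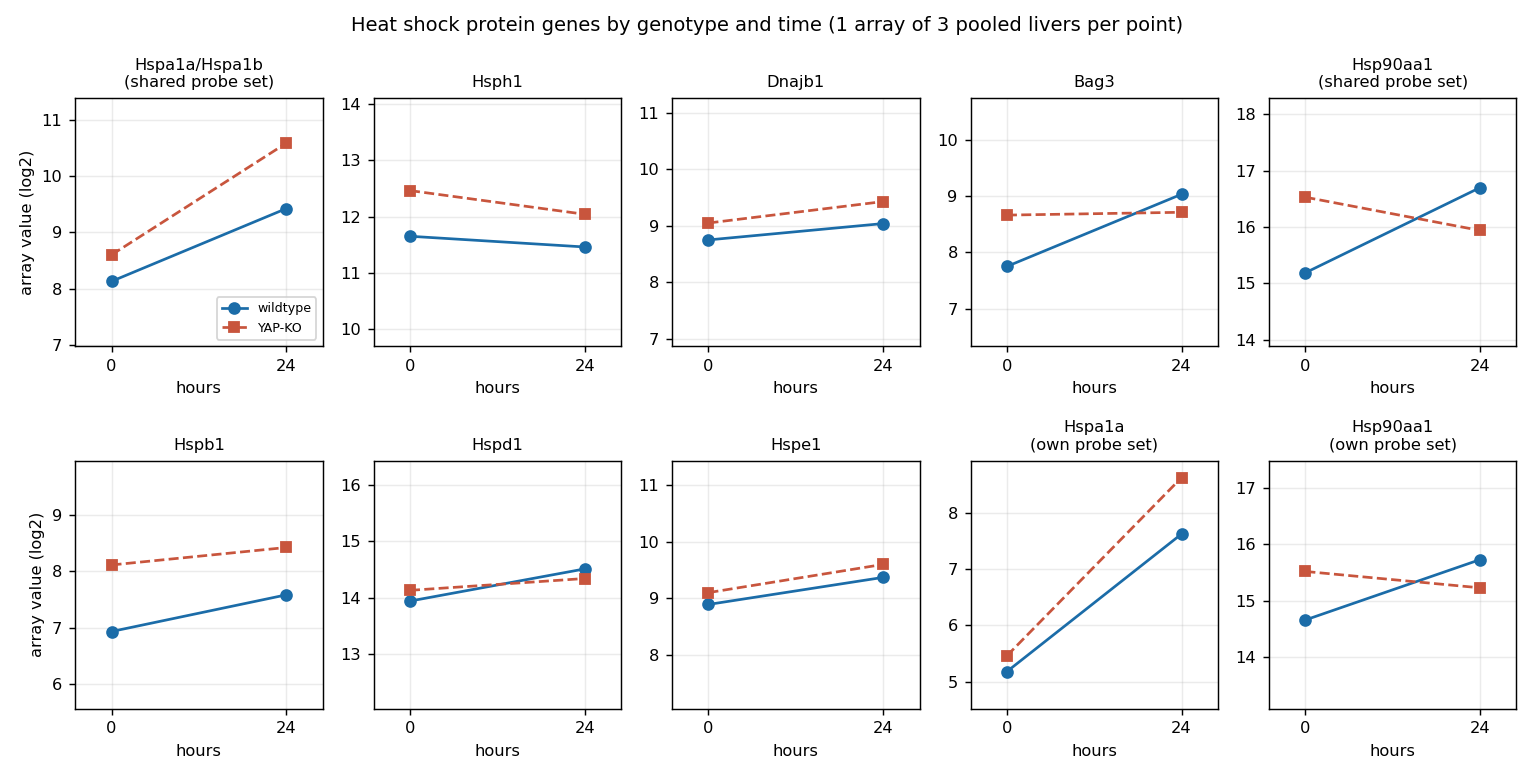
Array value (log2) of each probe set against time in hours, wildtype as blue circles and YAP-KO as red squares; every panel spans the same number of log2 units and each point is 1 array of 3 pooled livers. The lines of Bag3, Hsp90aa1 and Hspd1 cross between 0 and 24 h, those of Hspa1a/Hspa1b diverge, and those of Hspb1 and Hsph1 stay apart.

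Hspa1a and Hspa1b encode the stress-inducible cytosolic HSP70 and are near-identical neighbours on chromosome 17. Their stretch of 250 bases before to 50 after the start in RefSeq (GRCm38.p6) is identical at 296 of 300 positions. The upstream 250 bases, which differ at 3 positions, are shown 5′ to 3′, with capitals for the only match to the 8-base heat shock element core, at position -104 from the start in both.
Hspa1a, chr17:34972157-34972406, minus strand: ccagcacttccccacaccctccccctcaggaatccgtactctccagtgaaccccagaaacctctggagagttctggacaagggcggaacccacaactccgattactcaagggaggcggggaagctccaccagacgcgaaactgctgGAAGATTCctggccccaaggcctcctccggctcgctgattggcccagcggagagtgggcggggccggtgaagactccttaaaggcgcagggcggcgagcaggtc
Hspa1b, chr17:34959239-34959488, minus strand: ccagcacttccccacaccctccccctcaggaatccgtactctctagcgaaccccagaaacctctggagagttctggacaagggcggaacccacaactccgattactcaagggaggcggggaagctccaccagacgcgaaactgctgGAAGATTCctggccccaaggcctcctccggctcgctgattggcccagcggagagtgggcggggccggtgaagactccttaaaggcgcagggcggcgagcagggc

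The probe set annotated to both genes read 8.13 in wildtype and 8.60 in the YAP-KO array at 0 h, and 9.42 and 10.58 at 24 h. Both 24 h arrays were above both 0 h arrays, and YAP-KO was above wildtype at each time. The 24 h difference was 1.29 in wildtype (2.45-fold) and 1.98 in YAP-KO (3.94-fold), and 94 of 18439 features had a larger one in YAP-KO. Between the genotypes the difference was 0.47 at 0 h and 1.16 at 24 h (2.23-fold). A second probe set, annotated to Hspa1a alone, read 5.18 and 5.46 at 0 h against 7.62 and 8.62 at 24 h. It had the same order of arrays and larger 24 h differences, of 2.44 in wildtype (5.43-fold) and 3.16 in YAP-KO (8.94-fold). Hspa1b has no probe set of its own, so the share of each gene in the joint reading is not known.

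The additive limma model, with a term for genotype and one for time, has 1 residual degree of freedom, which is their interaction. It gave the joint probe set a 24 h difference of 1.63 with an SE of 0.26 and an adjusted p of 0.284 by limma. For the Hspa1a probe set limma gave 2.80 with an SE of 0.27 and an adjusted p of 0.284. No feature of any kind passed an adjusted p of 0.05 for time (0 of 18439, 0.00%; 2833 had an unadjusted p below 0.05, which is 15.4%). The genotype term called 0 features too (0.00%), with 436 below 0.05 unadjusted, or 2.36%. Of the 9 heat shock probe sets, 0 were called by limma for either term; 1 was below an unadjusted 0.05 for time and 3 for genotype. With so little residual information, 0 calls do not show that values did not differ.

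The 5 genes whose 4-array profile lay closest to that of the Hspa1a/Hspa1b probe set, by the root mean square difference of values centred on each gene's own mean over 18428 other genes, were Krtcap2 (0.09), Gfpt1 (0.11), Tspyl2 (0.11), Rpn1 (0.12) and Slc35b1 (0.14). Krtcap2 went from 7.59 to 8.98 over time in wildtype and from 8.01 to 9.89 in YAP-KO. With 4 arrays, such a likeness is a description only.

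Hspa8 encodes the constitutive HSC70, one of the most abundant proteins of the cell. Its brightest probe set was saturated on all 4 arrays (19.86, 19.83, 19.93 and 19.88), as were 3 further probe sets annotated to Hspa8 alone, and no difference can be read from them. All 4 have identifiers that carry chromosome 1, 6 or 14, whereas the gene lies on chromosome 9; the chromosome in the identifier matched that of the named gene for 99.0% of 31256 probe sets. The probe set of chromosome 9, annotated to Hspa8 and 3 small nucleolar RNA genes, gave 16.21 and 16.27 in wildtype (0 h, then 24 h) and 16.18 and 16.22 in YAP-KO. These values are 3.65 or 3.66 below the highest value of each array, so they move as the saturated values do. A sixth probe set, shared with the pseudogene Gm15459, carries chromosome 5 in its identifier. It was outside the limit for saturation but only 0.12 to 0.51 below the highest value of each array. It gave 19.69 and 19.76 in wildtype and 19.71 and 19.37 in YAP-KO, whose 24 h array was lowest. So close to the highest value, no difference of Hspa8 was read from it.

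**Figure D2:**
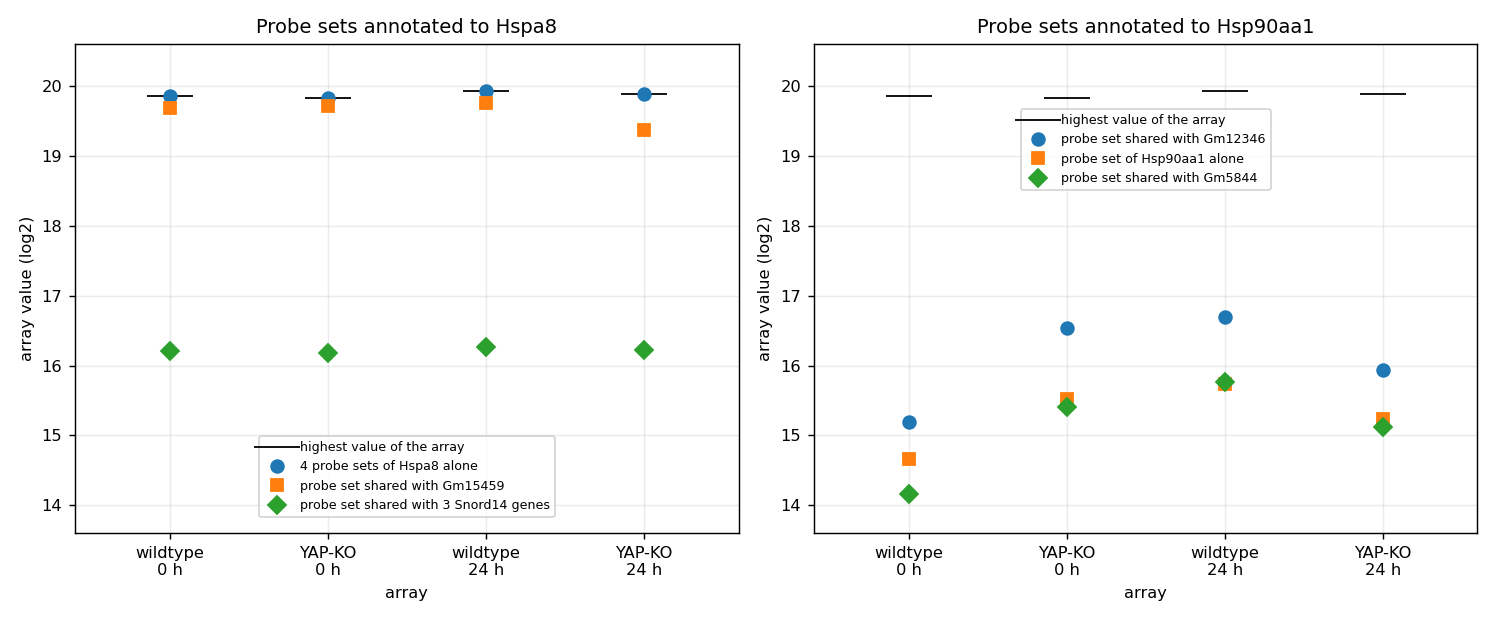
Array value (log2) of every probe set annotated to Hspa8 (left) and Hsp90aa1 (right) on the 4 arrays, with the highest value of each array as a black bar. Of the 6 Hspa8 probe sets, 4 lie at that bar, 1 lies 0.12 to 0.51 under it and 1 lies 3.65 to 3.66 under it, and the 3 of Hsp90aa1 share one order, lowest in wildtype at 0 h.

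Hsph1 encodes HSP110, a nucleotide exchange factor of HSP70 that also holds unfolded protein. Its probe set read 11.65 in wildtype and 12.46 in the YAP-KO array at 0 h, and 11.46 and 12.04 at 24 h. YAP-KO arrays were above both wildtype arrays, by 0.81 at 0 h (1.75-fold) and 0.58 at 24 h (1.49-fold). The 24 h difference was below 0 in both genotypes, at -0.19 and -0.42. In the limma fit the genotype difference was 0.69 with an SE of 0.18 and an adjusted p of 0.997.

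Dnajb1 encodes the J-domain protein that hands clients to HSP70 and starts its ATPase. Wildtype read 8.75, then 9.04, and YAP-KO read 9.05, then 9.43. Its 4 differences lay between 0.29 and 0.39, under the 2-fold line, and nearly additive: the 24 h difference in YAP-KO exceeded that in wildtype by 0.09.

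Bag3 encodes the co-chaperone that joins HSP70 to small heat shock proteins and to selective autophagy. Its probe set read 7.75 in wildtype and 8.66 in the YAP-KO array at 0 h, and 9.03 and 8.71 at 24 h. The wildtype 0 h array was low and the other 3 were close together. The 24 h difference was 1.28 in wildtype (2.43-fold) and 0.05 in YAP-KO, where it became -0.08 after quantile normalization and -0.09 after centring of the arrays. YAP-KO was 0.91 above wildtype at 0 h (1.88-fold) and 0.32 below it at 24 h (a difference of -0.32).

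Hsp90aa1 encodes the inducible cytosolic HSP90. Its brightest probe set, shared with the pseudogene Gm12346 and carrying chromosome 11 in its identifier, read 15.19 in wildtype and 16.53 in the YAP-KO array at 0 h, and 16.70 and 15.94 at 24 h. Wildtype at 0 h was again the lowest array. The 24 h difference was 1.51 in wildtype (2.85-fold) and -0.59 in YAP-KO, a difference between responses of -2.10; of 18439 features, 1.32% had a lower one. The genotype difference was 1.34 at 0 h (2.53-fold), larger than in all but 76 features, and -0.76 at 24 h. The probe set of Hsp90aa1 alone, on its own chromosome 12, read 14.66 and 15.73 in wildtype and 15.52 and 15.23 in YAP-KO. It kept each direction with smaller sizes: 1.07 and -0.29 for the 24 h differences, 0.86 and -0.50 for the genotype differences, the 0 h one then being under 2-fold. One more probe set, shared with the pseudogene Gm5844, read 14.16 and 15.77 in wildtype and 15.41 and 15.12 in YAP-KO.

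For Hsp90aa1 and Bag3 the wildtype 24 h difference was smaller with the YAP-KO 0 h array as the reference. That swap mixes genotype with time, so a low wildtype 0 h array and a high YAP-KO one cannot be told apart. Set against the YAP-KO 0 h array, wildtype at 24 h was 0.17 higher for Hsp90aa1 and 0.37 for Bag3. Against the same array, Hspa1a/Hspa1b was 0.82 higher in wildtype at 24 h, Hspd1 0.38 and Hspe1 0.27. For Hspb1 the difference turned from 0.65 to -0.53, and for Dnajb1 from 0.29 to -0.01. Hsph1, at 11.46 in wildtype at 24 h and 12.46 in YAP-KO at 0 h, was 2-fold lower there.

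Hspb1 encodes HSP27, a small heat shock protein that holds unfolded proteins without ATP and binds actin filaments. Its probe set read 6.93 in wildtype and 8.11 in the YAP-KO array at 0 h, and 7.58 and 8.42 at 24 h. Both YAP-KO arrays were above both wildtype arrays. The genotype difference was 1.18 at 0 h (2.27-fold; 112 of 18439 features had a larger one) and 0.84 at 24 h (1.79-fold). The 24 h difference was 0.65 in wildtype and 0.31 in YAP-KO. In the limma fit, the genotype difference was 1.01 with an SE of 0.20 and an adjusted p of 0.997.

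Hspd1 and Hspe1 encode HSP60 and its lid HSP10, which together form the chaperonin of the mitochondrial matrix, and are transcribed away from each other from a shared stretch of chromosome 1. Hspd1 read 13.94, then 14.51, in wildtype and 14.13, then 14.34, in YAP-KO. Hspe1 read 8.89, then 9.37, in wildtype and 9.10, then 9.60, in YAP-KO. The 24 h differences of the pair were alike in wildtype (0.57 for Hspd1 and 0.48 for Hspe1) and less so in YAP-KO (0.21 and 0.50), where that of Hspd1 became -0.06 after quantile normalization. Between the genotypes Hspd1 differed by 0.19 at 0 h and -0.17 at 24 h, and Hspe1 by 0.21 and 0.23. None of these reached 1.5-fold.

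Heat shock factors bind alternating copies of GAA and TTC. Of the 10 genes, 8 had at least 1 entry among the RefSeq promoter windows of 300 bases (GRCm38.p6; 11 entries in all). The 13-base form with 3 units, GAANNTTCNNGAA or TTCNNGAANNTTC on either strand, was found for Hsph1, Hspd1 and Hspe1, 3 of the 8, against 0.662% of 27025 genes with a window (0.603% of 32851 windows) and 2 of 83 other chaperone genes of the lists below. The 8-base form with 2 units, GAANNTTC or TTCNNGAA, which lies inside every 13-base match, was found for 7 of the 8 (Hspa1a, Hspa1b, Hsph1, Bag3, Hspb1, Hspd1 and Hspe1), against 17.0% of genes (15.1% of windows) and 17 of the 83. The matches of Hsph1, Hspd1, Hspe1 and Hspb1 are shown because they set genes with either form beside their array values; capitals mark the match.
Hspe1, chr1:55088053-55088082, plus strand: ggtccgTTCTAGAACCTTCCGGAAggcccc
Hspd1, chr1:55088053-55088082, minus strand: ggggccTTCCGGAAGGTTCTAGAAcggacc
Hsph1, chr5:149636287-149636308, minus strand: gctgcagaTTCTGGAAAGTTCt
Hspb1, chr5:135887786-135887845, plus strand: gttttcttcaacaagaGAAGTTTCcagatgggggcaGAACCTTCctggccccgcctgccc

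The Hspe1 and Hspd1 lines are the same 30 bases read on opposite strands, and hold 2 overlapping 13-base matches. Both genes are thus counted above from the same stretch. The starts of these 2 RefSeq entries are 216 bases apart. In Hspe1 the first match begins at position -89, and in Hspd1 at -144. Another Hspd1 entry had no match of either form. In Hsph1 the match lies after the start, at position 37 of one entry and 16 of the other. The Hspb1 matches begin at -117 and -97. The 3 genes with a 13-base match did not share a profile: Hsph1 was higher in YAP-KO by 0.81 and 0.58, whereas Hspd1 and Hspe1 differed between genotypes by at most 0.23 at either time. A match is a description of letters and not of binding.

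Before the overdose, all 8 readable probe sets were higher in YAP-KO, by 0.19 to 1.34 with a median of 0.64; over all 18439 features the median was -0.03 and 44.5% were above 0. At 2-fold or more were Hsp90aa1 and Hspb1, 2 of 8, and 0 were 2-fold lower, where 1.01% of all features were higher, 0.879% lower and 1.89% either. At 1.5-fold or more were 4 of 8, adding Bag3 and Hsph1, against 3.44% higher and 4.83% lower among all features. These genes were proposed with earlier results of the same arrays in view, so the shares describe them and test nothing. Both arrays come from fasted mice that had no acetaminophen. Of the neutrophil and monocyte markers 0 differed 2-fold between them, but most of the 8 probe sets did not either. Some cell markers differed by as much as several of the 8: Hnf4a by 0.80, Tagln by 0.77, Lyve1 by 0.74 and S100a8 by 0.59. Medians of the marker lists lay between -0.03 (hepatocyte) and 0.16 (cholangiocyte). The part of the cells in the 0 h differences was not tested.

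At 24 h, 5 of the 8 were higher in YAP-KO (46.8% of all features were) and 3 lower (Hsp90aa1, Bag3 and Hspd1), with a median of 0.31 against -0.02 for all features. Of the 8, 1 passed 2-fold, Hspa1a/Hspa1b, where 3.24% of features were 2-fold higher, 5.73% lower and 8.97% either. At 1.5-fold, Hspb1 joined it on the higher side and Hsp90aa1 stood on the lower side, against 8.25% and 13.4% of features. YAP-KO was above wildtype at both times for 5 of 8 probe sets, as for 18.3% of all features, and above at 0 h but below at 24 h for the other 3, as for 25.7%.

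Over time, 3 of 8 were 2-fold higher at 24 h in wildtype (Hspa1a/Hspa1b, Hsp90aa1 and Bag3) and 0 lower, against 12.7% higher, 5.89% lower and 18.6% either among all features. At 1.5-fold, Hspb1 made it 4 of 8 higher and 0 lower, against 23.3% and 12.0%. The wildtype 24 h differences and the 0 h genotype differences are taken from the same wildtype 0 h array, so their counts are not independent. Above 0 were 7 of 8 in wildtype and 6 of 8 in YAP-KO, as were 54.5% and 58.2% of all features. In YAP-KO 1 of 8 was 2-fold higher, Hspa1a/Hspa1b, and 0 lower, against 4.73% higher, 2.22% lower and 6.95% either. At 1.5-fold that gave 1 higher and 1 lower (Hsp90aa1), against 13.5% and 6.03%. The median difference was 0.61 for wildtype and 0.26 for YAP-KO; all features had 0.07 for both. Measured as the difference of the 2 responses, 2 of 8 were 2-fold lower in YAP-KO (Hsp90aa1 at -2.10 and Bag3 at -1.23), and 0 higher, against 7.52% lower, 5.66% higher and 13.2% either. At 1.5-fold it was 2 lower and 1 higher (Hspa1a/Hspa1b), against 16.4% and 13.8%, and 3 of 8 were above 0, against 49.1%. Centring the arrays on the median of the genes kept would lower wildtype 24 h differences by 0.25 and those in YAP-KO by 0.14. The 2-fold counts given here were the same after centring and after quantile normalization, but the wildtype one then lay near the line. The wildtype 24 h difference of Hspa1a/Hspa1b became 1.04 after centring and 1.06 after quantile normalization. That of Bag3 became 1.03 and 1.01.

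**Figure D3:**
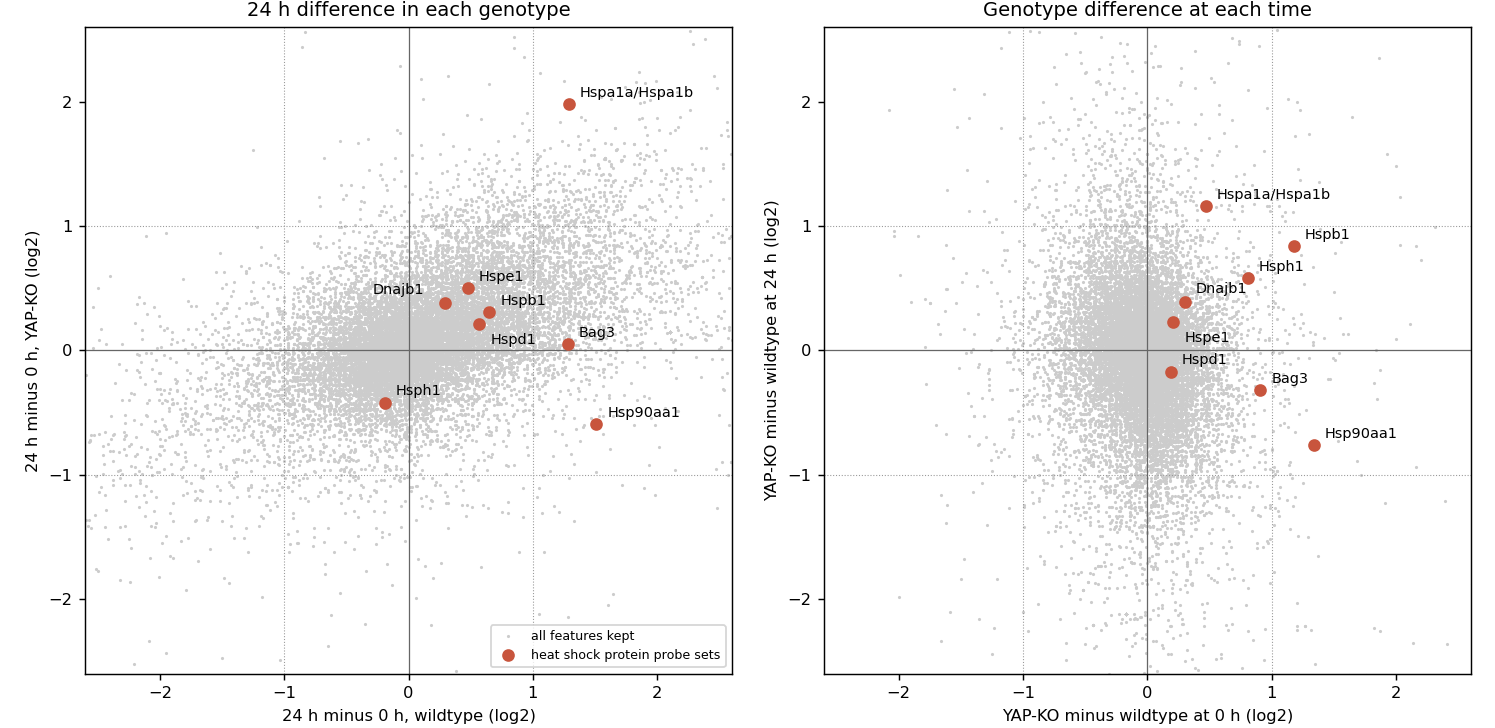
Log2 differences of the 8 readable heat shock probe sets (red) over all features kept (grey; those beyond 2.6 on either axis are not drawn), with the 24 h difference in wildtype against that in YAP-KO on the left and the genotype difference at 0 h against 24 h on the right; dotted lines mark 2-fold. All 8 lie to the right of 0 in the right panel, and Hsp90aa1, Bag3 and Hspd1 lie below 0 on its vertical axis.

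The wider chaperone network was read from lists of 106 other genes, of which 89 were measured above the filter from a probe set of their own. In all lists together, 19 of 89 were 2-fold higher and 2 lower at 24 h in wildtype, where 12.7% and 5.89% of all features were. In YAP-KO 9 were higher and 2 lower, against 4.73% and 2.22%. Between the genotypes, 4 were 2-fold higher and 0 lower in YAP-KO at 0 h (1.01% and 0.879% of all features), and 10 higher and 4 lower at 24 h (3.24% and 5.73%).

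Among other HSP70 family genes, 8 of 9 were above wildtype in YAP-KO before the overdose (44.5% of all features were), with a median of 0.48. Hyou1, an HSP70 relative of the endoplasmic reticulum, was 1.20 higher in YAP-KO at 0 h, and at 24 h it read 11.45 in wildtype and 13.45 in YAP-KO. Hspa13 was 0.59 and 1.17 higher. Hspa4, a cytosolic exchange factor like Hsph1, was 1.27 higher at 24 h in wildtype and -0.05 in YAP-KO. Of the J-domain genes, 6 of 20 were 2-fold higher at 24 h in wildtype and 4 of 20 in YAP-KO, led by Dnajc12 (2.38 and 3.77). Among all features 12.7% and 4.73% were. At 24 h Dnajc12 was 1.97 and Dnajb11 1.60 higher in YAP-KO, and Dnajc5, of secretory vesicles, was -1.29.

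Hspb8, the small heat shock protein known to bind BAG3, read 12.78 in wildtype and 13.85 in the YAP-KO array at 0 h, and 13.21 and 12.61 at 24 h. Like Bag3 and 25.7% of all features, it was higher in YAP-KO at 0 h (1.07) and lower at 24 h (-0.60). Its 24 h difference was 0.43 in wildtype and -1.24 in YAP-KO, where Bag3 had 1.28 and 0.05. Of 9 other small heat shock protein genes, 4 were below the filter, and in the measured 5 no other difference reached 2-fold. The lens crystallin gene Cryaa was -0.58 in YAP-KO against wildtype at 0 h.

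Of 12 HSP90 co-chaperone genes, 11 were above 0 in YAP-KO at 0 h (median 0.26), against 44.5% of all features. Fkbp5 (0.77), Stip1 (0.54), which links HSP70 to HSP90, and Chordc1 (0.47) led them. At 24 h 5 of 12 were above 0 (46.8% of all features were), and the median was -0.12, or 0.00 after quantile normalization. As for Hsp90aa1 and 13.8% of all features, the response of Fkbp5 was above 0 in wildtype (0.71) and below it in YAP-KO (-0.52). Hsp90b1, the HSP90 of the endoplasmic reticulum, was 0.58 higher in YAP-KO at 0 h and 1.23 at 24 h. The mitochondrial HSP90 gene Trap1 was -0.08 and 0.33, and Hsp90ab1 was not analysed here.

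The cytosolic TRiC chaperonin folds actin and tubulin. Together with its partner prefoldin it had 13 of 13 measured genes above 0 at 24 h in wildtype, 6 of them 2-fold. Among all features 54.5% were above 0 and 12.7% were 2-fold higher. Cct2 (2.03), Cct3 (1.90) and Cct7 (1.57) had the largest differences; in YAP-KO they were 0.57, 0.85 and 0.41. In YAP-KO 0 of 13 reached 2-fold (6.95% of all features did, either way), and at 24 h the median against wildtype was -0.51. The other mitochondrial chaperone and protease genes had a median of 0.02 in wildtype, or -0.23 after centring. Grpel1, the exchange factor of mitochondrial HSP70, was 1.30 higher in wildtype and 0.65 higher in YAP-KO. The protease subunit gene Clpx went from 13.48 to 12.48 in wildtype and from 13.01 to 13.18 in YAP-KO.

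The endoplasmic reticulum chaperone list stood highest in YAP-KO, with 13 of 13 measured genes above 0 against wildtype at 24 h. Of these 8 were 2-fold higher, and the median was 1.23. Among all features 46.8% were above 0 and 3.24% were 2-fold higher. Sdf2l1 (3.03) and Creld2 (2.39) led the list, followed by Hyou1. At 0 h the list median was 0.62, with 3 of 13 at 2-fold, against 1.01% of all features. The list shares Hyou1, Dnajb9, Dnajb11, Dnajc3, Hsp90b1 and Hspa5 with the families above, so these counts are not separate from theirs. For the other HSP70 co-chaperones the median was -0.04 at 0 h and -0.11 at 24 h; the latter became 0.03 after quantile normalization.

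The gene of heat shock factor 2, Hsf2, read 9.45 in wildtype and 8.98 in the YAP-KO array at 0 h, and 8.77 and 9.40 at 24 h. Its genotype differences were -0.47 and 0.63. Sqstm1, the autophagy receptor p62, was 2.11 higher at 24 h in wildtype and 0.71 in YAP-KO. Hsf1 was not analysed here.

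**Figure D4:**
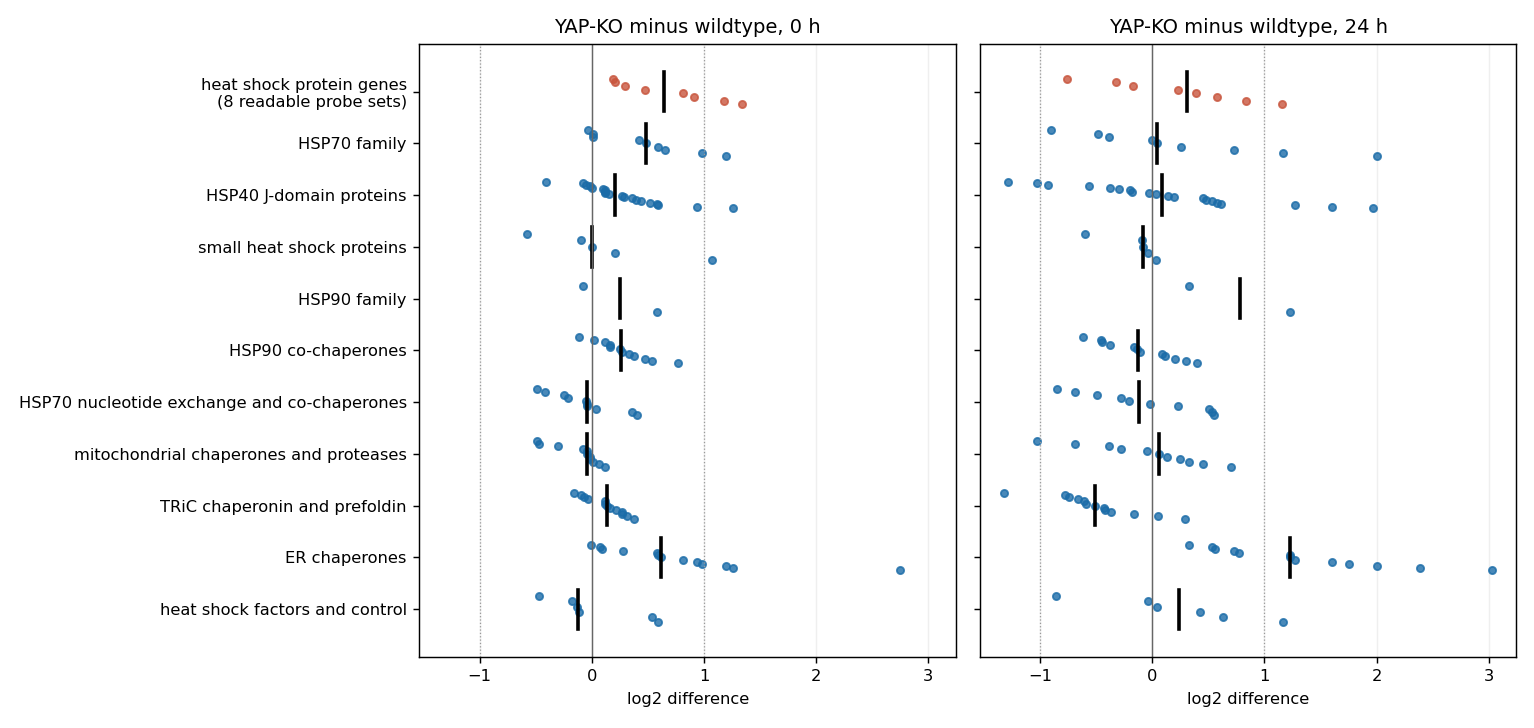
Log2 difference of YAP-KO minus wildtype at 0 h (left) and 24 h (right) for the 8 readable heat shock probe sets (red) and the measured genes of each list (blue, some genes in more than 1 list); each point is 1 gene or probe set, black bars are medians and dotted lines mark 2-fold. The red median is 0.64 at 0 h and 0.31 at 24 h, and that of the endoplasmic reticulum list is 0.62 and 1.23.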

How the data were processed

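The deposited values are log2 probe set values (2 decimals, 2.24 to 19.93) for 65956 probe sets on 4 single-channel arrays; the log base was inferred from their range. Per the labels, the biotin label came from the GeneChip WT Plus kit. How the authors summarised, background-corrected or normalized them is not given in the sources used here. Quartiles of the arrays differ, depth has no counterpart on arrays, and array number limits precision.

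Gene names came from GEO's annotation of the platform, updated through RefSeq (GRCm38.p6): 31258 had 1 gene, 1492 several and 33206 none. A filter at the 40th percentile of gene means (4.322) left 18437 genes, plus 2 shared probe sets of the genes described, 18439 features in all. The genes named are the 10, up to 3 per list with the largest difference in a comparison described, the 5 most alike in profile, and Yap1. Genes and lists were chosen with earlier results of these data known. The genotype plus time fit used limma 3.58.1 in R 4.3.3 with Benjamini-Hochberg adjustment at 0.05. On simulated data with 200 of 18439 features changed over time, it recovered 0.00% at a log2 change of 1 or 2, and 78.3% at 4. At 4, a median of 9 unchanged features were called too. Recovery under the adjustment depends on the share of features changed, which was set here and is not known for the real arrays. With 1 residual degree of freedom the fit has little power at the sizes seen here. Alternatives covered the fold threshold, the choice of probe set, scaling, the filter, the prior and the 0 h array.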

Additional observations from a re-analysis of the deposited data

Results flagged for a closer look

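Opposite directions in single arrays, none of them tested because each group is 1 array, were seen for 3 of the 8 readable probe sets. Hsp90aa1 was 1.51 higher at 24 h in wildtype and -0.59 in YAP-KO, and YAP-KO against wildtype was 1.34 at 0 h and -0.76 at 24 h; either way the difference is -2.10. Bag3 was 0.91 higher in YAP-KO at 0 h and -0.32 at 24 h, a difference of -1.23. Hspd1 went from 0.19 to -0.17, a difference of -0.36, with both values under 1.5-fold. No group had the 4 samples that a check for outlying samples needs.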

How the results depend on the processing

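No paired analysis was possible because each group has 1 array, all of replicate number 1, so the groups share fewer than 2 numbers; for the same reason no replicate could be left out. Of 37 recomputed 2-fold counts, 28 stayed within 1.5 times the count given. The 24 h count in wildtype, 3, became 1 (lower) against the YAP-KO 0 h array. The 24 h count in YAP-KO, 1, became 2 at 1.5-fold, 2 with the mean of probe sets and 2 against the wildtype 0 h array. With the mean of probe sets, Hspa1a and Hspa1b were counted apart (10 entries in place of 9). The rise to 2 there comes from their joint probe set entering both counts, not from a further gene. The 0 h genotype count, 2, became 4 at 1.5-fold, 1 without shared probe sets, and 1 with probe sets of the gene's own chromosome, an alternative chosen after seeing the data. The 24 h genotype count, 1, became 3 at 1.5-fold and 2 with the mean of probe sets, where Hspa1a and Hspa1b were again counted apart. The limma counts of heat shock probe sets were 0 in the alternatives run too. This says nothing about stability, since in simulated data the fit recovered 0.00% of changes of 1 or 2 log2 units. Of 216 recomputed single differences, 169 moved by under 0.2 and 47 by more, and 0 of those at 2-fold changed sign. Many of the 169 could not move. Hsph1, Dnajb1, Bag3, Hspb1, Hspd1 and Hspe1 have a single probe set each, so alternatives in the choice of probe set return the same value. The 169 are therefore not a measure of stability.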
